A study of Mus musculus with 20 samples.

Results

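The genes described here are 9 classic members of the miR-124 switch between progenitor and neuron: the splicing repressors Ptbp1 and Ptbp2, the transcriptional repressor Rest and its co-repressor Rcor1, the small phosphatases Ctdsp1, Ctdsp2 and Ctdspl, and the BAF53 subunits Actl6a (BAF53a) and Actl6b (BAF53b). They were chosen by name as textbook genes of this axis. They are 9 of the 19888 named genes in the AGO2 precipitation table and 9 of the 23781 gene symbols in the mRNA table. In the precipitation table they hold 17 annotated 3′UTRs, of which 8, from 7 genes, reached the minimum of 10 counts in every library that was required for testing.

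RNA was taken from the hippocampus of adult C57BL/6 mice injected with adeno-associated viral vectors (AAV5) that act under a synapsin promoter, which is active in neurons. In AGO2 RIP-seq, RNA bound to a GFP-AGO2 fusion protein was precipitated with a GFP antibody, without crosslinking, and reads in annotated 3′UTRs were counted. The vectors carried GFP-AGO2 in 1 transcript with a sponge for miR-124 (miR124sp), for miR-125 (miR125sp) or for miR-292 (miR292sp), a miRNA absent from the brain that served as the control, and sham-injected mice without a vector gave the background of the precipitation. Each of these 4 groups had 2 libraries, each from the pooled lysate of 2 hippocampi. In the mRNA-seq, which used vectors without AGO2, 3 mice with GFP.miR124sp were compared with 3 mice with GFP only, and 3 mice with GFP.miR125sp with 3 other mice with GFP only. A sponge is a transcript with several imperfectly matching sites that binds the miRNA in place of its targets. The p-values below measure the spread between these libraries and mice.

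miRNAs guide AGO2, the core protein of the RNA-induced silencing complex (RISC), to mRNAs, mostly by pairing of the seed, miRNA bases 2 to 8, with the 3′UTR. miR-124 is among the most abundant miRNAs of mature neurons. In the textbook account it lowers Ptbp1, which lets Ptbp2 and then neuronal splice forms appear. It lowers Ctdsp1 and its relatives, phosphatases that stabilise REST and are recruited to neuronal genes by it. Together with miR-9 and miR-9*, the partner strand of the miR-9 hairpin, it lowers Actl6a, so that the neuronal subunit Actl6b takes its place in the BAF chromatin remodelling complex.

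The precipitation libraries held 2417942 to 5072501 counts in 3′UTRs, and the mRNA libraries 6950522 to 27833176 counts. Of 10 neuronal marker genes, 9 had counts in every precipitation library, and Syt1 was at 0 in all of them. The summed level of the neuronal markers was 7437 to 7454 CPM (counts per 1e+06 counts in 3′UTRs) with miR124sp, 7552 to 8418 with miR125sp, 7415 to 7811 with miR292sp and 6972 to 7720 in sham. Astrocyte RNA was abundant in the same libraries: the 10 astrocyte markers summed to 43687 to 44106 CPM with miR124sp, 34762 to 37198 with miR125sp, 15016 to 15757 with miR292sp and 62730 to 63091 in sham, with 8 of 10 markers at counts above 0 in every library and Fgfr3 at 0. The precipitates are therefore described here as hippocampal RNA held with GFP-AGO2 on a background, and astrocyte RNA made up less of the miR292sp libraries than of any other group.

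Not every 3′UTR of these genes could receive counts. Of 9933 annotated 3′UTRs whose bases all lie within other 3′UTRs of the table, 9931 were at 0 in all 8 libraries, while of 16637 that share no base 3944 (23.7%) were at 0. A 3′ end shared by several transcripts of a gene was thus nearly always empty, and so were 129 of 129 3′UTRs that lie wholly opposite a 3′UTR of the other strand. Ptbp1 and Actl6a fall into these classes.

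Ptbp1, the progenitor form of the polypyrimidine tract binding protein, has 4 annotated 3′UTRs that start at the usual stop codon. Those of 1157, 1082 and 1155 bases lie wholly within the longest one and were at 0 in every library. The longest, 1494 bases at chr10:79326023-79327516 (mm9), shares 77.4% of its bases with them and held 10 counts over the 8 libraries. The other 3 annotated 3′UTRs of Ptbp1 have several blocks and were counted only in the block next to the stop codon, of 211, 66 and 136 bases. These counted blocks lie entirely in sequence that is coding in other Ptbp1 transcripts, so that their counts say nothing of the regular 3′UTR. They stayed under the minimum: the 211-base one had 8 and 29 counts with miR124sp, 36 and 89 with miR125sp, 45 and 54 with miR292sp and 58 and 22 in sham.

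Actl6a, the progenitor BAF53 subunit, has 1 annotated 3′UTR of 366 bases at chr3:32625525-32625890, all of which lies opposite the 3′UTR of Mrpl47, and it was at 0 in all 8 libraries while Mrpl47 held 1399 counts. Rcor1 has a 3′UTR of 3986 bases with 36.9% of its bases shared with a shorter one of its own, which was at 0. Actl6b has 2 tested 3′UTRs, of 196 bases at chr5:138010615-138010810 and of 73 bases at chr5:138008499-138008571. The 73-base one is only the block next to the stop codon of a 3′UTR annotated in 2 blocks, and it is wholly coding in other Actl6b transcripts. The 196-base one, with the higher count, is taken as the lead of Actl6b. AGO2 binding was therefore measured for Ptbp2, Rest, Rcor1, Ctdsp1, Ctdsp2, Ctdspl and Actl6b, and could not be measured for the regular 3′UTRs of Ptbp1 or Actl6a.

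The genome sequence (mm9) of the 3′UTRs was searched for GTGCCTT, the heptamer opposite the miR-124 seed, on the sense strand. It occurred at 11 sites in 6 of the 9 genes: 5 in Ctdsp1, 2 in Ptbp2 and 1 each in Ptbp1, Rcor1, Ctdsp2 and Ctdspl. Over all 34136 annotated 3′UTRs examined, 9.34% held it, and among 3′UTRs of similar length (0.8 to 1.25 times) the share was 15.4% for Ptbp1, 16.2% for Ptbp2, 32.2% for Rcor1, 17.5% for Ctdsp1, 29.0% for Ctdsp2 and 27.5% for Ctdspl. Rest held no heptamer but 2 hexamers, opposite miRNA bases 2 to 7, and Actl6a and Actl6b held neither.

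These windows of 25 bases are shown because they are the letters the miR-124 seed could pair with in the genes that follow. They are given 5′ to 3′ on the mRNA strand with the heptamer in capitals, and the number in each name is the heptamer's first base counted from the stop codon. They lie at chr10:79326264-79326288 (Ptbp1), at chr3:119422982-119423006 and chr3:119422241-119422265 on the minus strand (Ptbp2), at chr12:112350971-112350995 (Rcor1), at chr10:126433579-126433603 (Ctdsp2), at chr9:118950177-118950201 (Ctdspl) and at chr1:74442325-74442349 (the first of the Ctdsp1 sites).
Ptbp1 255: atagccgctttctGTGCCTTacaaa
Ptbp2 253: ttagttgacatacGTGCCTTacaaa
Ptbp2 994: gaccaaagtttatGTGCCTTtagtc
Rcor1 858: acatttggaattgGTGCCTTctcct
Ctdsp2 50: actctgctacactGTGCCTTtgtgg
Ctdspl 423: cctacaggatgaaGTGCCTTtttga
Ctdsp1 180: ggcccctgtgtcaGTGCCTTcaaac

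The sites of the paralogues Ptbp1 and Ptbp2 sit at nearly the same distance from the stop codon, 255 and 253 bases. They share 12 letters in a row, from the first base of the heptamer on, the longest run among the 55 pairs of the 11 sites, of which the next shared 10. These were also the only sites followed by an A, the letter that lengthens a heptamer to an octamer match. In Ctdsp2 the heptamer begins 50 bases after the stop codon, the nearest of all, and in Ctdsp1 the sites were spread over positions 180, 340, 397, 1026 and 1347 of 1701 bases.

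Matches to other neuronal miRNAs were present in the same 3′UTRs. The mature miR-125a-5p, miR-125b-5p and miR-9-3p (miR-9*) are shown from RefSeq with bases 2 to 8 in capitals, because miR-125 is the target of the other sponge and miR-9* is the partner of miR-124 on Actl6a. Both miR-125 forms have the same seed.
miR-125a-5p: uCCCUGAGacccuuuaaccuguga
miR-125b-5p: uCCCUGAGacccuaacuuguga
miR-9-3p: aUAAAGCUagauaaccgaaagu

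The heptamer opposite the miR-125 seed, CTCAGGG, was present in Rest at position 1354, in Ctdsp1 at 205 and in Ctdspl at 45, against 9.39% of all 3′UTRs. Among 3′UTRs of similar length the share was 28.7% for Rest, 16.9% for Ctdsp1 and 28.1% for Ctdspl. The Rest site was followed by an A. The heptamer opposite miR-9-3p, AGCTTTA, was present in Actl6a at position 38 and in Ctdsp2 at 327, against 7.34% of all 3′UTRs. For miR-9-3p the share among 3′UTRs of similar length was 2.56% for Actl6a and 27.5% for Ctdsp2. The Rest and Actl6a sites are shown as the only ones of their kind in these genes, and they lie at chr5:77713350-77713374 and at chr3:32625549-32625573.
Rest 1354: agcatcatattttCTCAGGGatctc
Actl6a 38: cctcaacgtctgtAGCTTTAgtaca

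A heptamer opposite miR-9-5p was present in Ptbp1, Ptbp2, Rest and Ctdsp2, and 1 opposite miR-26a and miR-26b in Ptbp2, Rest, Rcor1 and Ctdsp2. The shares of all 3′UTRs with these were 8.38% and 6.44%. Among 3′UTRs of similar length the miR-9-5p share was 14.7% for Ptbp1, 15.7% for Ptbp2, 27.8% for Rest and 28.4% for Ctdsp2. The miR-26 share was 11.8% for Ptbp2, 22.4% for Rest, 25.6% for Rcor1 and 22.5% for Ctdsp2. All 3 phosphatase genes carry a miR-26 gene within their own transcribed region on the same strand: Mir26b in Ctdsp1, Mir26a-2 in Ctdsp2 and Mir26a-1 in Ctdspl. A match of letters is a description of the sequence and does not show that a site was used.

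**Figure D1:**
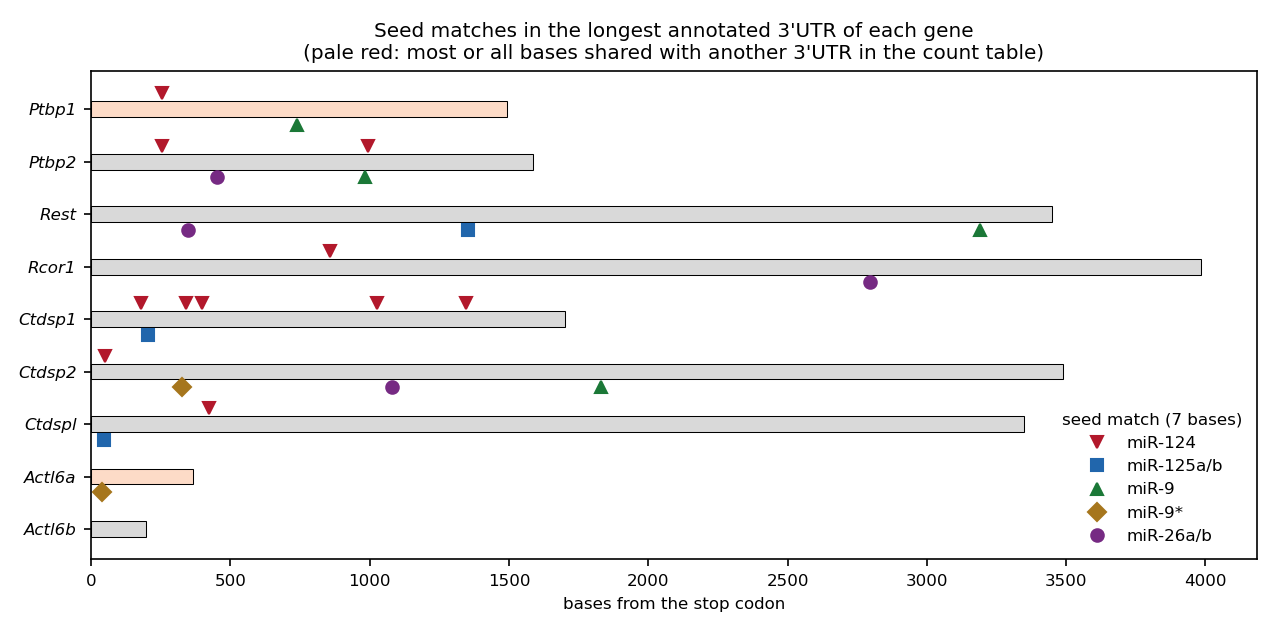
Seed matches in the longest annotated 3′UTR of each of the 9 genes, with bases from the stop codon on the x axis and 1 bar per gene. Red triangles above the bars are the 11 miR-124 heptamers, of which 5 lie in Ctdsp1, and symbols below the bars are heptamers for miR-125, miR-9, miR-9* and miR-26. Pale red bars (Ptbp1 and Actl6a) share most or all of their bases with another 3′UTR of the table and received few or no counts.

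The comparison of miR292sp with sham asks which mRNAs were held with AGO2 above the background of the precipitation. Of the 7 genes that could be tested, 6 were higher in the miR292sp libraries: the splicing factor Ptbp2, the repressor Rest and its partner Rcor1, and all 3 phosphatases. The neuronal subunit Actl6b did not pass the test. Over all 8203 3′UTRs tested 59.4% were higher at this threshold, so that a high count by itself does not set these genes apart. In DESeq2, whose scaling takes most 3′UTRs as unchanged, 4 of the 7 were higher: Ptbp2, Rcor1, Ctdsp2 and Ctdspl. Ptbp2, Rcor1, Ctdsp2 and Ctdspl stood above the median of all 3′UTRs, and Rest and Ctdsp1 were close to it.

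Fold changes over sham were computed with edgeR (quasi-likelihood test, Benjamini-Hochberg adjusted p below 0.05) after scaling to 101 reference genes, as the study did. These are Gapdh with its 50 upper and 50 lower neighbours in the order of the raw ratio to sham. With miR292sp these genes took 0.697% and 0.745% of all counts, against 2.01% and 1.92% in sham. The scaling therefore lifts the miR292sp libraries as a whole, and the median log2 fold change of the 8203 3′UTRs was 1.26, with 4872 higher and 48 lower, whereas with TMM scaling 1768 were higher and 1563 lower. The median of the 8 tested 3′UTRs of the switch genes was 1.99, and over their 7 genes with 1 lead 3′UTR each it was 2.42.

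Ptbp2 regulates splicing in developing neurons. Its 3′UTR (1586 bases, chr3:119421660-119423245, minus strand) had 81.1 and 90.0 CPM with miR124sp, 70.6 and 85.1 with miR125sp, 119 and 121 with miR292sp, and 43.7 and 34.3 in sham. All 6 libraries with GFP-AGO2 lay above both sham libraries, and the miR292sp libraries were the highest. Its log2 fold change of miR292sp over sham was 3.07 ± 0.29 (SE, edgeR adjusted p = 6.91e-08), 1.81 above the median of all 3′UTRs.

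REST silences neuronal genes outside neurons and is kept low in them, and RCOR1 (CoREST) is the scaffold that joins REST to histone-modifying enzymes. The Rcor1 3′UTR (chr12:112350127-112354112) had 76.2 and 48.6 CPM with miR124sp, 78.4 and 77.5 with miR125sp, 116 and 97.4 with miR292sp, and 19.8 and 43.4 in sham. The sham libraries were the lowest of the 8 and the miR292sp libraries the highest. Its log2 fold change of miR292sp over sham was 3.21 ± 0.38 (edgeR adjusted p = 1.23e-06).

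Rest (3448 bases, chr5:77712010-77715457) had far fewer counts, with 53 and 47 in the miR124sp libraries, 45 and 35 with miR125sp, 59 and 37 with miR292sp and 16 and 30 in sham. These were 14.5 and 16.0 CPM with miR124sp, 13.4 and 9.86 with miR125sp, 11.6 and 7.42 with miR292sp, and 5.46 and 12.4 in sham, so that the miR292sp and sham libraries overlapped. After the 101-gene scaling they did not, and the log2 fold change was 1.55 ± 0.56 (edgeR adjusted p = 0.0232), 0.29 above the median of all 3′UTRs. The call was lost in 7 of 11 alternatives, among them TMM scaling (0.20, adjusted p = 0.780), DESeq2 (0.23, adjusted p = 0.790), and the fits without miR292sp library 5 (adjusted p = 0.192) and without sham library 7 (adjusted p = 0.178).

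The phosphatases Ctdsp1, Ctdsp2 and Ctdspl remove phosphate from RNA polymerase II and from REST. Ctdsp2 (3489 bases, chr10:126433543-126437031) had the highest count of all the switch genes, with 439.8 and 534 CPM with miR124sp, 595 and 628 with miR125sp, 789 and 881 with miR292sp, and 289 and 272 in sham. The 4 groups did not overlap. Its log2 fold change of miR292sp over sham was 3.02 ± 0.17 (edgeR adjusted p = 2.01e-10).

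Ctdspl (3349 bases, chr9:118949768-118953116) had 269 and 317 CPM with miR124sp, 306 and 327 with miR125sp, 376 and 374 with miR292sp, and 184 and 198 in sham. Both sponges against neuronal miRNAs left it between the miR292sp and the sham libraries. The log2 fold change of miR292sp over sham was 2.42 ± 0.20 (edgeR adjusted p = 9.76e-09).

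Ctdsp1, which holds 5 of the 11 miR-124 heptamers, was not among the genes above the median. Its 3′UTR (1701 bases, chr1:74442159-74443859) had 63.9 and 66.2 CPM with miR124sp, 51.6 and 70.7 with miR125sp, 54.4 and 42.9 with miR292sp, and 64.1 and 64.5 in sham. As a share of each library it was thus lower with miR292sp than in sham. After the 101-gene scaling the log2 fold change was 1.05 ± 0.32 (edgeR adjusted p = 0.00934), but this lay 0.21 below the median of all 3′UTRs, and its direction flipped to -0.32 (adjusted p = 0.424) with TMM scaling, which takes most 3′UTRs as unchanged.

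Actl6b, the subunit of the neuronal BAF complex, did not pass the test over sham. The 196-base 3′UTR had 21.8 and 29.6 CPM with miR124sp, 31.0 and 38.6 with miR125sp, 23.7 and 25.7 with miR292sp, and 46.1 and 38.0 in sham. Both sham libraries lay above every miR124sp and miR292sp library and overlapped with those of miR125sp. The log2 fold change of miR292sp over sham was 0.68 ± 0.39 (edgeR adjusted p = 0.143), 0.58 below the median of all 3′UTRs. The 73-base 3′UTR had 13.4 and 17.3 CPM with miR124sp, 21.2 and 16.3 with miR125sp, 8.87 and 7.62 with miR292sp, and 20.1 and 24.4 in sham. Its log2 fold change was 0.02 ± 0.48 (adjusted p = 0.979), and with TMM scaling it was lower with miR292sp than in sham (-1.34, adjusted p = 0.0285).

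**Figure D2:**
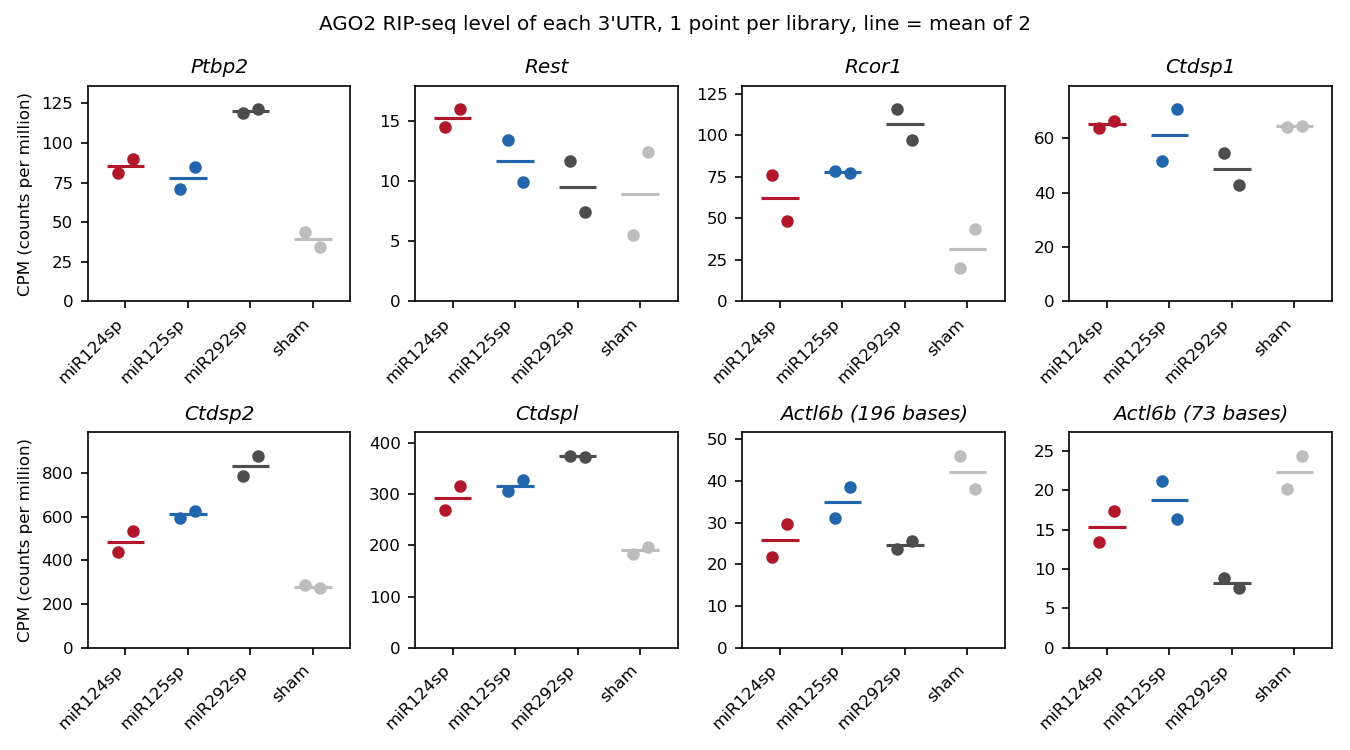
AGO2 RIP-seq level of the 8 tested 3′UTRs in CPM (of all counts in 3′UTRs, linear y axis from 0), with 1 point per library and a line at the mean of 2, for miR124sp, miR125sp, miR292sp and sham. Ptbp2, Rcor1, Ctdsp2 and Ctdspl are highest with miR292sp and lowest in sham, whereas both Actl6b 3′UTRs have lower CPM with miR292sp than in sham, with log2 fold changes of 0.68 and 0.02 after the 101-gene scaling.

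The study called a 3′UTR bound above a relative enrichment of 4, the scaled count divided by the mean of sham. Of all 3′UTRs 27.2% (2230) passed, and Ptbp2, Rcor1, Ctdsp2 and Ctdspl were among them. The 2 miR292sp libraries gave 8.62 and 8.23 for Ptbp2, 10.3 and 8.06 for Rcor1, 7.95 and 8.29 for Ctdsp2 and 5.55 and 5.16 for Ctdspl. Rest (3.64 and 2.17), Ctdsp1 (2.39 and 1.76) and Actl6b (1.59 and 1.61) stayed under 4, and the median of all 3′UTRs was 2.39.

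The relative enrichment was lower with both other sponges, as it was for the median 3′UTR (1.29 with miR124sp, 1.47 with miR125sp, 2.39 with miR292sp). It was 3.00 with miR124sp, 3.14 with miR125sp and 8.43 with miR292sp for Ptbp2. For Rcor1 it was 2.67 with miR124sp, 3.85 with miR125sp and 9.16 with miR292sp. Ctdsp2 had 2.37 with miR124sp, 3.43 with miR125sp and 8.12 with miR292sp, and Ctdspl had 2.09 with miR124sp, 2.61 with miR125sp and 5.36 with miR292sp. Each of these 4 genes was also higher than sham with miR124sp and with miR125sp (edgeR, adjusted p at most 0.00988), where 19.3% and 30.1% of all 3′UTRs were higher.

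In the study's ranking by relative enrichment, where rank 1 of 8203 is the lowest, none of the 4 genes left the 2230 highest ranks with either sponge. Of the 2230 3′UTRs, 475 (21.3%) left them with miR124sp and 383 (17.2%) with miR125sp. These counts were recomputed here per 3′UTR and differ from the counts of genes that the paper reports. The rank of Ptbp2 was 7683 with miR124sp, 7318 with miR125sp and 7598 with miR292sp, and that of Ctdsp2 was 7205 with miR124sp, 7463 with miR125sp and 7559 with miR292sp. Rest ranked higher with miR124sp (7118) than with miR125sp (5914) or miR292sp (4854).

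**Figure D3:**
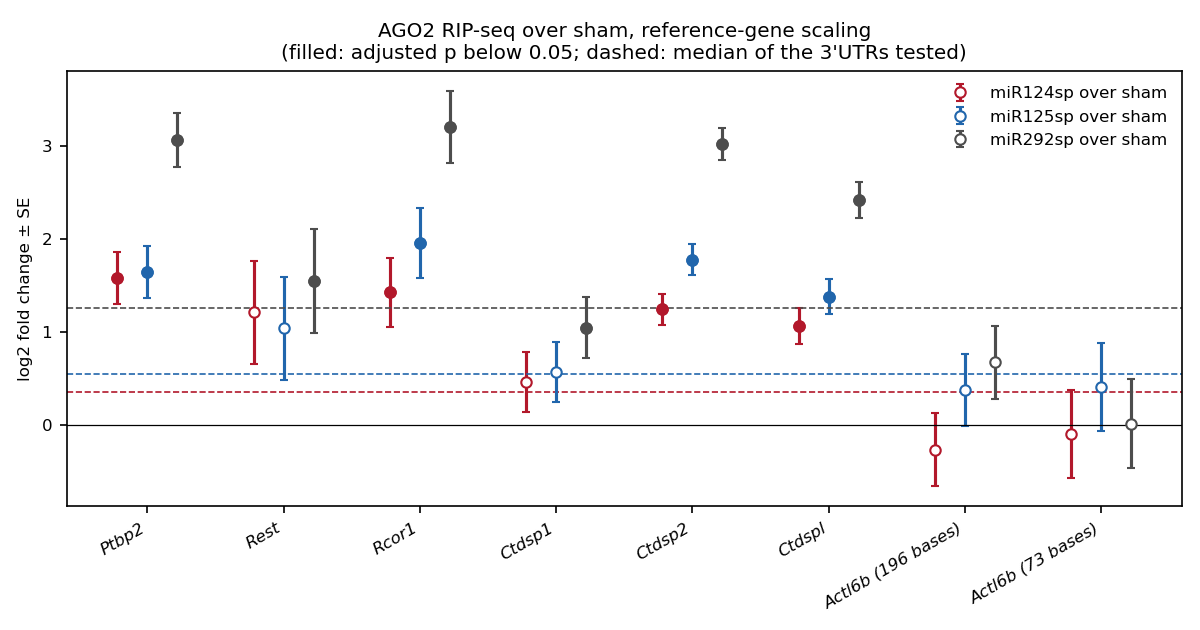
Log2 fold change over sham of the 8 tested 3′UTRs, with its SE, for miR124sp, miR125sp and miR292sp after 101-gene scaling. Filled points passed an adjusted p below 0.05, and the dashed lines mark the medians of all 8203 3′UTRs (0.36, 0.55 and 1.26). Ptbp2, Rcor1, Ctdsp2 and Ctdspl are filled in all 3 comparisons, which share the same sham libraries.

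The comparison of miR124sp with miR292sp asks which mRNAs lost AGO2 binding when miR-124 was sponged. Of the switch genes, 1 changed: Ctdsp2 was lower with miR124sp. Ptbp2, Rcor1 and Ctdspl also had lower values in both miR124sp libraries than in either miR292sp library but did not pass the test, and Rest, Ctdsp1 and the 73-base 3′UTR of Actl6b had higher values without passing it. Over the whole table of 8203, 3.46% fell and 5.10% rose with miR124sp relative to miR292sp, and among the 2230 bound above 4-fold 12.6% were lower. These 2230 were chosen for high values in the same miR292sp libraries, so that their share and median are in part set by that choice and are given as a description.

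Ctdsp2, with 1611 and 1571 counts in both miR124sp libraries and 4001 and 4394 in those of miR292sp, was lower by a log2 fold change of -0.77 ± 0.17 (SE, edgeR with TMM scaling, adjusted p = 0.0129). This is 0.585 times the level with miR292sp. The 2230 bound 3′UTRs, with the same reservation, had a median of -0.56. The call held without miR124sp library 4, and it was lost without miR124sp library 3 (-0.70, adjusted p = 0.0627), without miR292sp library 5 (-0.83, adjusted p = 0.0998) and without miR292sp library 6 (-0.71, adjusted p = 0.145).

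The other 3 bound genes had log2 fold changes of -0.75 ± 0.35 for Rcor1 (adjusted p = 0.179), -0.48 ± 0.27 for Ptbp2 (adjusted p = 0.271) and -0.35 ± 0.19 for Ctdspl (adjusted p = 0.239). Their CPM values, given above, did not overlap between the groups. With 2 libraries per group this is a description only, and its share among all 3′UTRs was not counted. A p that misses the threshold does not show that these genes were equal in both groups.

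Of the genes under 4-fold enrichment, none kept its direction under the 101-gene scaling, where Rest was at -0.33, Ctdsp1 at -0.59, and Actl6b at -0.94 and -0.11. The median of all 3′UTRs was -0.97 under that scaling, and each of these values lay above it. With TMM scaling Rest had a log2 fold change of 0.68 ± 0.51 (adjusted p = 0.422) and Ctdsp1 of 0.43 ± 0.31 (adjusted p = 0.401). Actl6b had 0.06 ± 0.38 (adjusted p = 0.941) for its 196-base and 0.89 ± 0.46 (adjusted p = 0.230) for its 73-base 3′UTR. The median over the 8 tested 3′UTRs was -0.15, and over all 8203 it was 0.04. Over the 7 tested switch genes with 1 lead 3′UTR each it was -0.35.

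The scaling set how many of these genes were called. With the 101-gene scaling the median of all 3′UTRs was -0.97, 17 were higher and 4105 lower, and 4 switch genes were lower: Rcor1 (-1.78, adjusted p = 0.000637), Ctdsp2 (-1.78, adjusted p = 9.68e-07), Ptbp2 (-1.49, adjusted p = 0.000264) and Ctdspl (-1.35, adjusted p = 2.48e-05). Relative to the median of all 3′UTRs, Ctdsp2 was at -0.81 under either scaling, Ptbp2 at -0.52 and Ctdspl at -0.39. Astrocyte RNA moved with the same groups, at 43687 to 44106 CPM with miR124sp and 15016 to 15757 CPM with miR292sp, and 4 of the 8 tested astrocyte markers were higher with miR124sp, Slc1a2 by 1.53 ± 0.10 (adjusted p = 6.44e-08). The part of this background in the lower values of Ctdsp2, Rcor1, Ptbp2 and Ctdspl was not tested.

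The comparison of miR125sp with miR292sp asks whether a sponge for another neuronal miRNA left these genes alone. Of the 8 tested 3′UTRs 0 passed the threshold in edgeR and 3 had an unadjusted p below 0.05. DESeq2 gave an adjusted p for 5 of them, without Rest and Actl6b, and called 0. Over all 3′UTRs 0.232% were lower and 1.18% higher, and 1406 had an unadjusted p below 0.05. This comparison and that of miR124sp share the miR292sp libraries, so that their values are given side by side only.

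The log2 fold changes with miR125sp were -0.64 ± 0.27 for Ptbp2 (adjusted p = 0.245), -0.46 ± 0.17 for Ctdsp2 (adjusted p = 0.185), -0.47 ± 0.34 for Rcor1 and -0.26 ± 0.18 for Ctdspl. The CPM values of these 4 genes did not overlap between miR125sp and miR292sp, all being lower with miR125sp. How many of all 3′UTRs did the same was not counted, so this does not set these genes apart. Ctdsp1 and Ctdspl, which carry a miR-125 heptamer, had 0.31 ± 0.31 and -0.26 ± 0.18, and Rest, whose match is followed by an A, had 0.27 ± 0.51, but with the 101-gene scaling Ctdsp1 was at -0.47 and Rest at -0.51. Relative to the median of all 3′UTRs, Rest was at 0.25 and Ctdspl at -0.28 under either scaling, and Ctdsp1 at 0.29 (TMM) and 0.28 (101-gene). With the 101-gene scaling, where the median of all 3′UTRs was -0.75 and 18 were higher and 3132 lower, Ptbp2 (-1.42), Rcor1 (-1.25), Ctdsp2 (-1.24) and Ctdspl (-1.04) were lower (edgeR adjusted p at most 0.0108), and in a fit of these 4 libraries alone Ctdsp2 was (adjusted p = 0.0462).

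Whether the sponges differed was tested directly, without the miR292sp libraries, as miR124sp against miR125sp. Of the 8 tested 3′UTRs 0 passed in edgeR or DESeq2, and 0 had an unadjusted p below 0.05. Among all 3′UTRs 0.0122% (1) was lower with miR124sp and 0 were higher, 430 had an unadjusted p below 0.05, and DESeq2 also called 1. Ctdsp2 had -0.31 ± 0.17 (SE, edgeR adjusted p = 0.921), Rcor1 -0.28 ± 0.35, Ptbp2 0.16 ± 0.27 and Ctdspl -0.09 ± 0.19. Lower AGO2 binding with miR124sp than with miR125sp was therefore not shown for any of these genes.

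**Figure D4:**
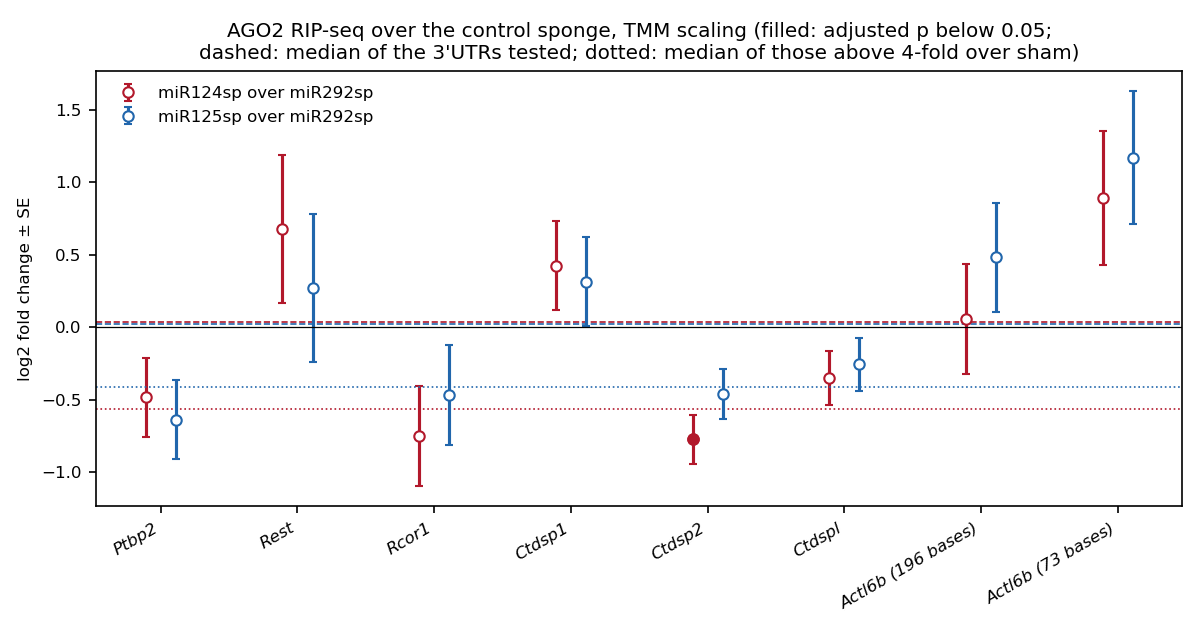
Log2 fold change of miR124sp and of miR125sp over the control sponge miR292sp for the 8 tested 3′UTRs, with SE, after TMM scaling. The only filled point, past an adjusted p of 0.05, is Ctdsp2 with miR124sp (-0.77). Dashed lines are the medians of all 8203 3′UTRs (0.04 and 0.03) and dotted lines those of the 2230 bound above 4-fold (-0.56 and -0.41), which were chosen for high values with miR292sp.

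The mRNA-seq measured the whole hippocampus, in which fewer cells of a type and less RNA per cell cannot be told apart. In the GFP mice, by RPKM, a level per length of transcript (mean ± SD of 6 GFP mice), Actl6b was highest at 71.4 ± 2.55, followed by Ptbp2 at 52.3 ± 3.13, Ctdsp1 at 17.1 ± 1.76, Ctdspl at 10.8 ± 0.819, Actl6a at 9.52 ± 0.686, Rcor1 at 7.91 ± 0.965, Ctdsp2 at 3.52 ± 0.518, Rest at 2.15 ± 0.239 and Ptbp1 at 0.155 ± 0.0837. The neighbours Ctdspl and Actl6a overlapped in range, as did Actl6a and Rcor1, and the other neighbours did not.

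The low level of Ptbp1 is uncertain. It has 3 RefSeq transcripts, of which 1 held counts, and 92 reads in all 12 mice. Ctdsp2 likewise has 2 RefSeq transcripts, of which 1 held 37 of its 3459 reads, so that its level and place in the order share this doubt. Of the transcripts of genes with several transcripts 58.0% were at 0 in all mice, against 17.5% of the transcripts of genes with 1. Ptbp1 was too low to be tested, with 0.531, 0.549 and 0.536 CPM in the miR124sp mice and 0.431, 0.750 and 0.168 in their GFP mice, and with 0.189, 0.437 and 0.468 in the miR125sp mice and 0.834, 0.288 and 0.426 in theirs. These are 2 to 15 reads per mouse, and a difference was not detectable at this depth.

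In the miR-124 experiment 1 of the 8 tested genes changed, as Rcor1 mRNA was higher in the miR124sp mice. The other 7 genes did not pass the test. Over all 12971 genes 12.6% were higher and 10.7% lower with miR124sp, so that 1 gene of 8 is a share near the background. Ctdsp2, whose lower AGO2 binding with the same sponge was called in 8 of 11 alternatives, had an mRNA log2 fold change of -0.02 ± 0.14. This SE leaves room for a modest change in either direction.

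Rcor1 had 23.8, 23.5 and 24.9 CPM in the miR124sp mice and 18.4, 19.5 and 19.9 in the GFP mice, without overlap. The log2 fold change was 0.36 ± 0.08 (SE, edgeR adjusted p = 0.0153). The call was lost without GFP mouse 15 (0.29, adjusted p = 0.0854), without miR124sp mouse 14 (0.36, adjusted p = 0.0532) and without miR124sp mouse 2 (0.36, adjusted p = 0.0620). The GFP mice of the miR-125 experiment had 23.1, 25.0 and 23.3 CPM, the level of the miR124sp mice.

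None of the 3 phosphatases passed the test. Ctdsp1 had 44.0, 40.7 and 43.5 CPM in the miR124sp mice and 50.6, 55.2 and 47.0 in the GFP mice, lower without overlap but not past the threshold (-0.22 ± 0.08, edgeR adjusted p = 0.0823). Ctdspl had 59.2, 55.9 and 57.0 CPM in the miR124sp mice against 49.3, 56.0 and 48.9 in GFP mice (0.20 ± 0.08, adjusted p = 0.0990). Ctdsp2 had 17.3, 15.8 and 19.4 CPM in the miR124sp mice against 15.8, 21.8 and 17.1 in GFP mice, which overlap widely (-0.02 ± 0.14, adjusted p = 0.943).

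The neuronal partners of the switch stayed near their control level or slightly under it. Ptbp2 had 154, 162 and 173 CPM in the miR124sp mice and 173, 159 and 180.3 in the GFP mice (-0.03 ± 0.08, adjusted p = 0.806). Actl6b had 103, 96.9 and 101 CPM in the miR124sp mice against 116, 110.2 and 113 in GFP mice, all lower with miR124sp without passing the test (-0.14 ± 0.06, adjusted p = 0.137). Its progenitor counterpart Actl6a had 18.4, 17.0 and 17.5 CPM in the miR124sp mice against 20.4, 19.7 and 18.4 in GFP mice (-0.10 ± 0.08, adjusted p = 0.402).

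Rest mRNA had 9.55, 8.09 and 10.1 CPM in the miR124sp mice and 10.7, 9.04 and 8.67 in the GFP mice. The log2 fold change was 0.00 ± 0.13 (edgeR adjusted p = 0.999). Markers of other cells moved in the same mice: 7 of 9 tested oligodendrocyte markers were higher with miR124sp (summed level 961 to 1266 CPM in miR124sp mice against 686 to 761 in GFP mice), 5 of 9 astrocyte markers were lower (2695 to 2922 CPM in miR124sp mice against 3455 to 4048 in GFP mice) and 6 of 8 microglial markers were lower (637 to 677 CPM in miR124sp mice against 745 to 828 in GFP mice). Their part in the values of the switch genes was not tested.

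**Figure D5:**
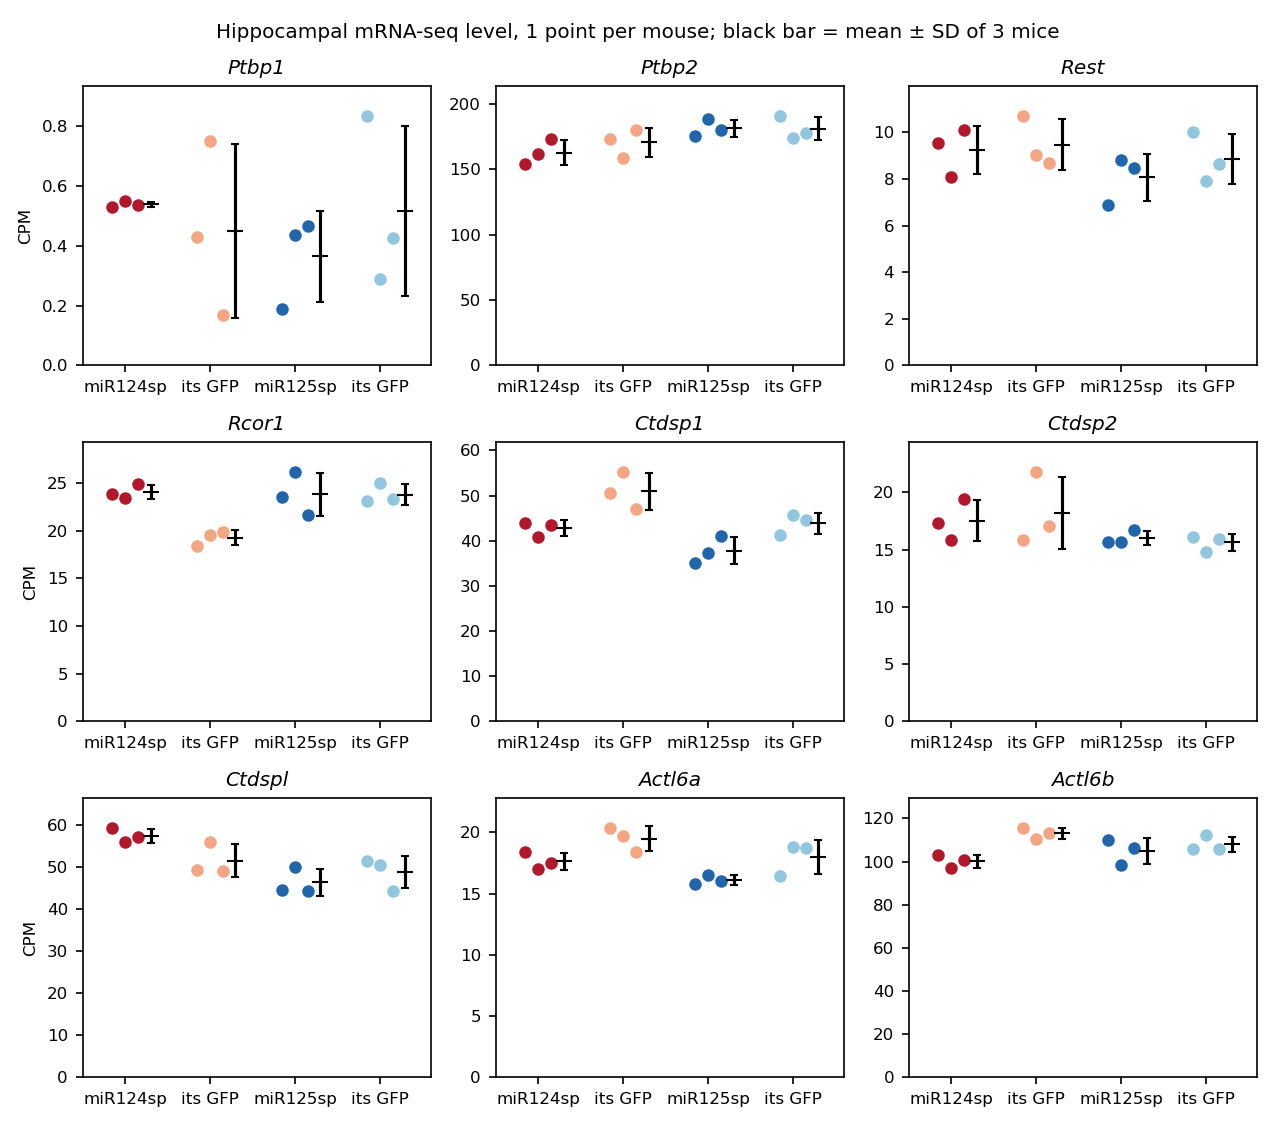
Hippocampal mRNA level of the 9 genes in CPM (linear y axes from 0), with 1 point per mouse and the mean ± SD of 3 mice, for miR124sp and its GFP mice and for miR125sp and its GFP mice. Rcor1 is higher in the miR124sp mice (23.5 to 24.9) than in their GFP mice (18.4 to 19.9), while the GFP mice of the miR-125 experiment lie at 23.1 to 25.0.

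In the miR-125 experiment 0 of the 8 tested genes passed the threshold in edgeR and 1 had an unadjusted p below 0.05. DESeq2 gave an adjusted p for 4 of them (Ptbp2, Ctdsp1, Ctdspl and Actl6b) and called 0. Over all 12638 genes 0.0554% were higher and 0.150% lower. Ctdsp1 again had the lowest value, with 35.1, 37.3 and 41.0 CPM in the miR125sp mice and 41.3, 45.8 and 44.7 in their GFP mice, lower without overlap (-0.21 ± 0.07, edgeR adjusted p = 0.277). Actl6a followed with 15.8, 16.6 and 16.1 CPM in the miR125sp mice against 16.4, 18.8 and 18.7 in GFP mice (-0.15 ± 0.09, adjusted p = 0.493). Rcor1 had 23.6, 26.2 and 21.7 CPM in the miR125sp mice, and its difference from GFP was 0.01 ± 0.09 (adjusted p = 0.971).

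Rest had 6.90, 8.82 and 8.47 CPM in the miR125sp mice and 10.0, 7.91 and 8.63 in their GFP mice (-0.12 ± 0.14, adjusted p = 0.760). Ptbp2, Ctdsp2, Ctdspl and Actl6b had log2 fold changes between -0.05 and 0.05. The difference between both sponge effects was tested over all 12 mice, and 0 of the 8 genes passed in edgeR or DESeq2, against 7.42% higher and 7.06% lower of all 13268 genes. An unadjusted p below 0.05 was found for 1 of them. For Rcor1 the difference was 0.33 ± 0.12 (edgeR adjusted p = 0.0711) and for Ctdspl 0.24 ± 0.11 (adjusted p = 0.183), so that the higher Rcor1 mRNA with miR124sp was not shown to be particular to that sponge.

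The headers of 8 of the 12 mRNA libraries carried a mark that the sources do not explain, and those of miR124sp mice 2 and 9 and of GFP mice 14 and 15 of the miR-125 experiment did not. All GFP mice of the miR-124 experiment carried it. With the mark as a term in a fit of the 12 mice, chosen after seeing the data, Rcor1 stayed higher with miR124sp (0.32, edgeR adjusted p = 0.0368).

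Partners and relatives of the switch genes were counted from lists that do not hold the 9 genes themselves. In the precipitates each gene entered with its tested 3′UTR of highest total count. Of 19 PTB relatives and splicing partners 14 were tested in the precipitates, and 12 were higher with miR292sp than in sham, with a median log2 fold change of 1.16, beside 59.4% and a median of 1.26 for all 3′UTRs. In DESeq2 4 of the 14 were higher. Examples are the neuronal RNA-binding protein Elavl3 (2.07 ± 0.14) and the PTB co-factors Raver1 (2.44 ± 0.23) and Raver2 (2.42 ± 0.22). None of the 14 passed the edgeR test with miR124sp or miR125sp against miR292sp, where 5 and 1 had an unadjusted p below 0.05 and DESeq2 called 1 lower in either comparison. In the mRNA-seq 3 of 14 were higher with miR124sp, against 12.6% of all genes: the neuronal splicing factors Nova1 (0.85 ± 0.18) and Srrm4 (0.40 ± 0.10), and Elavl1 (0.27 ± 0.07).

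Of 16 REST and CoREST partners 6 were tested in the precipitates and 5 were higher with miR292sp than in sham (3 in DESeq2), against 59.4% of all 3′UTRs. Ctbp1, a co-repressor, was at 3.03 ± 0.24 over sham. Of the 6, against 3.46% of all 3′UTRs, it was the only one lower with miR124sp than with miR292sp (-1.03 ± 0.23, edgeR adjusted p = 0.0123). With miR125sp it had -0.89 ± 0.22 (edgeR adjusted p = 0.0599), where DESeq2 called it lower (-0.94 ± 0.23, adjusted p = 0.00261), and the direct difference between the sponges was -0.14 ± 0.23 (adjusted p = 0.993). In the mRNA-seq 1 of 11 was higher with miR124sp, against 12.6% of all genes. It was the Rcor1 relative Rcor2 (0.31 ± 0.09, edgeR adjusted p = 0.0362), which DESeq2 did not call.

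The list of other phosphatases of the Ctdsp kind had 6 names, of which Dullard is an older name of Ctdnep1. Of the 2 tested in the precipitates Ctdnep1 was higher with miR292sp than in sham (1.90 ± 0.29), against 59.4% of all 3′UTRs, and DESeq2 called 0. With miR124sp or miR125sp against miR292sp, neither passed the edgeR test nor had an unadjusted p below 0.05. DESeq2 called 0 there too, with an adjusted p for 1 of the 2 in the case of miR125sp. Of the 3 tested in the mRNA-seq Ctdp1 was higher (0.38 ± 0.08) and Ssu72 lower (-0.35 ± 0.08) with miR124sp, against 12.6% and 10.7% of all genes. Both act on RNA polymerase II.

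Of 26 other BAF subunits 20 were tested in the precipitates and 15 were higher with miR292sp than in sham, with a median of 1.81, beside 59.4% and 1.26 for all 3′UTRs. DESeq2 called 10 higher and 3 lower. Examples are the core subunit Smarcc1 (3.51 ± 0.25) and the accessory subunits Bcl11a (4.01 ± 0.32) and Bcl7a (3.01 ± 0.21). With miR124sp 2 were higher than with miR292sp, Pbrm1 (1.17 ± 0.29) and Brd9 (0.71 ± 0.21), and 0 were lower. Over all 3′UTRs 5.10% were higher and 3.46% lower. DESeq2 called 2 of these subunits higher and 2 lower. In the mRNA-seq, where 12.6% of all genes were higher and 10.7% lower with miR124sp, 5 of 22 were higher, among them Arid1a (0.37 ± 0.08), Smarcd1 (0.34 ± 0.08) and Bcl11a (0.46 ± 0.11), and Smarcd3 was lower (-0.44 ± 0.10).

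Textbook miR-124 targets outside the switch gave the largest median over sham of these lists. Of 26 genes 13 were tested, and these 13 were higher with miR292sp than in sham after the 101-gene scaling (median 2.42, against 59.4% of all 3′UTRs), led by the integrin subunit Itgb1 (5.26 ± 0.25). DESeq2 called 8 of the 13 higher. With miR124sp 2 of the 13 were lower than with miR292sp, against 3.46% of all 3′UTRs. The 2 were the collagen-modifying enzyme Plod3 (-1.31 ± 0.37, edgeR adjusted p = 0.0378) and the ephrin Efnb1 (-1.33 ± 0.40, edgeR adjusted p = 0.0479). The median of the 13 was -0.47. Among all 3′UTRs above 4-fold, chosen for high miR292sp values, 12.6% were lower and the median was -0.56. With miR125sp 0 of 13 passed the edgeR test (median -0.21), 3 had an unadjusted p below 0.05, and DESeq2, with an adjusted p for 7, called 1 lower. In the mRNA-seq 2 of 21 were higher with miR124sp and 1 lower, against 12.6% and 10.7% of all genes. The small GTPase Rhog (0.48 ± 0.10) and the laminin subunit Lamc1 (0.36 ± 0.09) were higher. Sox9, which also marks astrocytes, was lower (-0.27 ± 0.07).

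Neuronal genes that REST represses outside neurons were counted last. Of 20 tested in the precipitates 16 were higher with miR292sp than in sham (median 1.47, against 59.4% of all 3′UTRs), whereas DESeq2 called 6 higher and 6 lower. With miR124sp 4 of the 20 were higher than with miR292sp and 0 lower, against 5.10% and 3.46% of all 3′UTRs. Among the 4 were the receptor subunit Gria2 (0.55 ± 0.16), the calcium buffer Calb1 (1.04 ± 0.25) and the vesicle protein Syp (1.25 ± 0.31). DESeq2 called 3 higher and 2 lower. In the mRNA-seq 8 of 22 were higher with miR124sp and 1 lower, against 12.6% and 10.7% of all genes. In the same mice 3 of 9 neuronal markers were higher and 1 was lower (Camk2a, -0.44 ± 0.13). Of the oligodendrocyte markers 7 of 9 were higher, and 5 of 9 astrocyte markers were lower. The part of these markers in the count of REST-repressed genes was not tested. Of the 8, those with the smallest p were the receptor subunit Grin1 (0.54 ± 0.08), the secreted peptide Vgf (0.67 ± 0.11), the neurofilament Nefm (0.81 ± 0.14) and Chga (0.55 ± 0.10). With miR125sp 1 of 22 was higher, Snap25 (0.27 ± 0.04, edgeR adjusted p = 0.0422), against 0.0554% of all genes.

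The 3′UTRs whose CPM pattern over the 8 precipitation libraries was most like that of Ctdsp2 were those of Mmp24 (Pearson r = 0.996), Neurl1b (0.993) and Tjp1 (0.993), on log2(CPM + 0.5). Many others were nearly as like it, as 747 3′UTRs had r above 0.9. For the 73-base 3′UTR of Actl6b, whose value between miR124sp and miR292sp was the farthest from 0 (0.89, not past the threshold, and -0.11 with the 101-gene scaling), they were Dhdh (0.984), Trmu (0.979) and Immt (0.978), with 137 above 0.9. All 8 points share their libraries, depth and background, and these values describe likeness only.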

How the data were processed

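The authors deposited raw read counts for both assays. For RIP-seq they counted 50-base reads in annotated 3′UTRs, and for mRNA-seq per RefSeq transcript with a program that the sources used here do not name. The paper names mm9, whereas the submitters' processing notes name mm10, STAR and edgeR. Of 38158 3′UTRs, 98.0% had a gene name and 89.5% had the length expected from GENCODE M1 on NCBIM37 (mm9), which gave names, coordinates and site sequences. For a 3′UTR of several blocks, the length of the block next to the stop codon was also accepted. Mature miRNAs came from RefSeq. Unnamed 3′UTRs held 0.386% of the RIP-seq counts and transcripts without a symbol 0.849% of the mRNA-seq counts, and both stayed unnamed or were left out of sums per symbol.

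3′UTRs with at least 10 counts in every RIP library were tested (8203), all 8 libraries in 1 fit, with edgeR 4.0.16 (quasi-likelihood) and Benjamini-Hochberg adjustment over all of them. Comparisons with sham were scaled by 101 reference genes (mean count), and those between sponges by TMM. mRNA counts were summed per symbol (23781), filtered by filterByExpr and fitted per experiment on 6 mice, and the difference of effects on 12 mice. All 9 genes were named in every comparison, and other genes only from lists, at most 4 per list and comparison, by smallest p among those past the threshold. Likeness was given for the 3′UTRs with the highest count and the largest change. The genes and lists were chosen with earlier results of these data known. Intervals are standard errors of the fits. Alternatives were other scalings, DESeq2 1.42.0, other filters, summing or selecting rows of a gene, fewer or more libraries in the fit, leaving out each library, and other seed matches. Scripts were tested on simulated data. R 4.3.3, limma 3.58.1, Python 3.11.15, numpy 2.4.6, pandas 2.3.3 and matplotlib 3.10.9 were used.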

Additional observations from a re-analysis of the deposited data

Results flagged for a closer look

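The 66-base 3′UTR of Ptbp1 stayed under the count minimum and entered no comparison, and was singled out because its level was higher with miR292sp than in sham, at 1.78 times the CPM. It had 1.09 and 6.79 CPM with miR124sp, 5.37 and 9.86 with miR125sp, 5.32 and 9.22 with miR292sp, and 4.44 and 3.72 in sham, from 4 to 46 counts per library. Under filterByExpr, which keeps it, the log2 fold change of miR292sp over sham was 2.25 ± 0.83 (SE, edgeR with 101-gene scaling). This 3′UTR was picked for the same difference, so that a p-value would be circular and none is given. The 101-gene scaling also lifts the miR292sp libraries as a whole, so that the value by itself does not set this 3′UTR apart. With all Ptbp1 3′UTRs summed the log2 fold change was 1.14 ± 0.58 (edgeR adjusted p = 0.110). These 66 bases are coding in other Ptbp1 transcripts.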

How the results depend on the processing

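Over all alternatives and switch genes, 592 values kept their direction and side of the threshold, 45 changed sign with neither value past it, 15 fell short of it, 11 newly passed it and 6 changed sign with a value past it. These 6 were over sham: Ctdsp1 was at -0.32 with TMM, -0.29 with DESeq2's size factors and -0.29 in DESeq2, and the 73-base 3′UTR of Actl6b at -1.34, -1.32 and -1.32. Among the 45 were the 196-base 3′UTR of Actl6b over sham (-0.69, -0.67 and -0.67) and, under 101-gene scaling of miR124sp against miR292sp, Ctdsp1, Rest and both 3′UTRs of Actl6b (-0.59, -0.33, -0.94 and -0.11). The median of all 3′UTRs in that last fit was -0.97. Switch genes called with miR124sp against miR292sp numbered 1, 4 with 101-gene scaling and 0 to 1 without single libraries. With miR125sp against miR292sp they numbered 0, 4 with 101-gene scaling and 1 in a fit of both groups only. In the mRNA-seq, 1 was called with miR124sp, 2 in a fit of 12 mice and 0 to 2 without single mice, and for the difference of effects 0, and 0 to 1 without single mice. A miR-124 match was present in 6 genes, and in 2 when followed by an A.

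Counts over all features moved too. With miR124sp against miR292sp 702 3′UTRs were called, 1140 in DESeq2, 1123 in a fit of both groups, 396 under filterByExpr, 4122 with 101-gene scaling and 61 to 314 without single libraries, the fewest without miR292sp library 5. With miR125sp against miR292sp 116 were called, 374 in DESeq2, 514 in a fit of both groups, 282 without a filter, 35 under filterByExpr, 3150 with 101-gene scaling and 6 to 21 without single libraries. With miR124sp against miR125sp 1 was called, and 13 without a filter. Over sham 4872 were higher and 48 lower, against 1768 and 1563 with TMM. In the mRNA-seq 3018 genes were called with miR124sp and 1000 to 4021 without single mice, the fewest without GFP mouse 15. With miR125sp 26 were called, 144 in DESeq2, 209 without a filter, 6 in a fit of 12 mice and 0 to 108 without single mice, the most without GFP mouse 15. For the difference 1921 were called, 687 with the header mark and 1105 to 2951 without single mice. The cause was not tested. No paired analysis was done, because neither the labels nor the paper describes pairs of mice or libraries. Groups of 2 libraries and the low counts of Rest and Ptbp1 limit what could be detected.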
